A study of Homo sapiens with 6 samples.

Results

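The genes described here carry glucose into the cell, break it down to pyruvate and decide what becomes of that pyruvate. They were followed in SHSY5Y cells, an established human neuroblastoma line often used as a stand-in for catecholamine neurons, grown in serum-containing MEM and F12 medium. The 3 control cultures were untreated, and the 3 manganese cultures received 100 µM manganese for 24 h, which is the LC50 over 5 according to the labels. The list holds 37 genes, and the arrays name 18132 genes with a probe set of their own. A gene was represented by its brightest probe set, by the mean over the 6 arrays, among probe sets annotated to that gene alone. On that rule 34 of the 37 genes could be read, from 101 probe sets, and 32 passed a filter for dim probe sets and were tested. PFKFB2, a regulator of phosphofructokinase, and PDK4, a pyruvate dehydrogenase kinase, were too dim, with all of their probe sets below the 40th percentile of the array on at least 4 arrays. The 5 probe sets that name the glucose transporter SLC2A3 also name SLC2A14 and were not used, and the monocarboxylate transporters SLC16A1 and SLC16A3 were not analysed here. Values are log2 RMA values, so that a difference of 1 is a doubling of the array signal.

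Glucose enters neurons and neuron-like cells through facilitative transporters and is trapped by hexokinase. Glycolysis then splits the phosphorylated sugar and yields pyruvate, ATP and NADH. Pyruvate is either reduced to lactate in the cytosol or passed through the mitochondrial pyruvate carrier to the pyruvate dehydrogenase complex, which pyruvate dehydrogenase kinases switch off. Many of the glycolytic genes are textbook targets of the hypoxia-inducible factors, and several steps are served by more than 1 isoform with different tissue ranges and regulation.

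The arrays of this small series were not all alike. The poly(A) RNAs spiked into each sample as a labelling control had a mean signal of 5.98 on control 1 and control 3 and 7.83 on control 2 and the manganese arrays, so that each gene's difference against control 2 alone is given beside the one against all controls. Control 1 was furthest from the rest, with a mean Pearson r of 0.974 to the other arrays against 0.986 to 0.989 for the others (taken across genes, so with no independent points). RNA integrity, read as the 3' minus 5' signal of the GAPDH control probe sets, was between 0.67 and 0.73 on every array. The part of these array differences in the results below was not tested. All 10 noradrenergic neuroblastoma markers measured passed the filter, among them HAND2, GATA2, PHOX2A and DBH. The summed signal of those markers lay between 15.07 and 15.11 on the control arrays and between 15.02 and 15.04 on the manganese arrays (log2 of the sum). That sum is weighted to bright markers such as HAND2 and GATA2 and shows little of dimmer ones. ISL1 had the largest difference of the 10, at -0.58 (limma unadjusted p 0.0306, adjusted p 0.351). Its groups overlapped, its second probe set gave -0.82, and its difference was -0.26 against control 2. PHOX2A and TH were the only markers with positive differences, at 0.22 and 0.12. Of 9 mesenchymal-state markers 3 were too dim to test, CD44 and YAP1 among them, and of the 6 tested none was past the threshold. Among the 6, TWIST1 was bright, with means of 12.01 in controls and 12.02 in manganese. The other tested markers of this state were dim, with control means from 4.70 (PRRX1) to 6.27 (FN1). Their differences lay on both sides of 0, from -0.49 for FN1 to 0.25 for SNAI2. The summed mesenchymal signal was 11.97 to 12.20 in controls and 12.10 to 12.13 in manganese. It is almost wholly that of TWIST1 and shows little of the dim markers. Markers of other cells, epithelial (EPCAM, CDH1), blood (PTPRC, LYZ) and glial (AQP4), were too dim to test, and none of the 7 that did pass the filter in those lists was past the threshold. The summed signal of the noradrenergic markers was thus slightly lower in manganese without overlap, and that of the 3 epithelial markers read (KRT8, KRT18 and KRT5), which was faint, was slightly higher, at 6.37 to 6.55 in controls and 6.58 to 6.67 in manganese. Their part in the results was not tested.

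Most of the glycolytic genes read higher in manganese-exposed cells by small amounts, whereas the measured subunits of the pyruvate dehydrogenase complex were not. No gene of the list passed the threshold, an adjusted p of 0.05 in limma over all 13407 genes tested, where 0.142% of genes passed. Of the 32 genes, 18 had all 3 manganese arrays above all 3 control arrays, against 10.5% of all genes tested, and 2 had them all below, against 9.26%. At an unadjusted p under 0.05, 15 of the 32 were higher and 1 was lower, where 5.97% and 6.85% of all genes were. That lower gene was TIGAR, also 1 of the 2 below without overlap, and it passed the filter through its controls. GBE1, among the 15 higher, would not have passed without its manganese arrays. Both genes were near background, so their place in these counts depends on the filter. The median difference over the 32 genes was 0.29, and over all genes tested it was 0.02. Against control 2 alone the median of the list was 0.20. Without control 1, 22 of the 32 genes were higher without overlap, as were 16.3% of all genes, and the median was 0.33. The list was drawn up with earlier results of these data known, so these counts describe the genes and are not a separate test of their direction. In bulk RNA from a culture, a shift in the make-up of the surviving cells and a change in RNA per cell cannot be told apart.

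**Figure D1:**
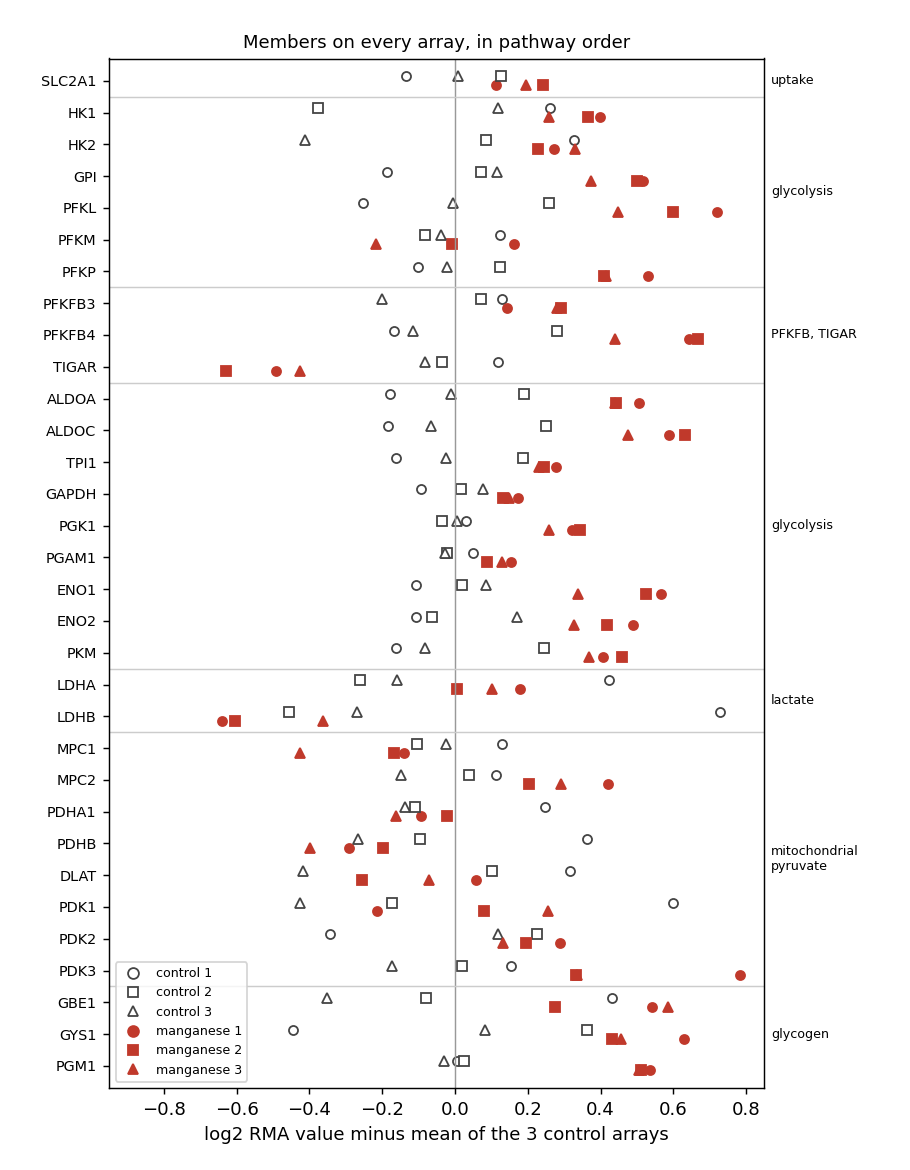
Log2 RMA value of the 32 tested genes on each array, minus the mean of the 3 control arrays, in pathway order, with open grey symbols for control arrays and filled red symbols for manganese arrays. Among the glycolytic enzymes from GPI to PKM the red symbols lie to the right of all open ones for every gene but PFKM, while LDHA, LDHB, PDHA1, PDHB, DLAT, PDK1 and PDK2 overlap.

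By array, the median deviation of the 32 genes from their own 6-array mean was -0.11, -0.06 and -0.16 on controls 1, 2 and 3 and 0.18, 0.11 and 0.11 on the manganese arrays. Over all genes tested the same quantity stayed between -0.04 and 0.01. The manganese arrays were therefore above each of the controls for the list as a whole, control 2 included, and control 3 was the lowest.

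Because the glycolytic genes lay together on the high side, their upstream sequences were searched for the core of the hypoxia response element, ACGTG or GCGTG, on both strands, in the 250 bases before each RefSeq transcription start (GRCh38.p14). An E-box of the form CACGTG holds the motif on both strands and counts as 2 matches. The 34 genes of the list with such a window were not quite those read on the arrays. They included SLC16A3, which was not analysed, and lacked PFKFB2. PDK4, too dim to test, was also among them. Of these 34 genes 28 held at least 1 match in at least 1 window. Over all 27305 genes with a window, whether or not they were tested on the arrays, 47.4% did. This count favours genes with several windows, and the list had 66 windows for 34 genes, against 35116 for the 27305. Counted by window, 54.5% of the 66 windows of these genes and 43.2% of all windows held a match. Among the 18 genes with manganese higher and no overlap 15 held a match, and among the other 14 tested genes 12 did. The sequences shown are those of ALDOC, PGK1 and ENO1, whose groups did not overlap, and of LDHA and PDHB, which held as many matches or more and whose groups did overlap. They were chosen after the values had been seen, and capitals mark the matches.
ALDOC: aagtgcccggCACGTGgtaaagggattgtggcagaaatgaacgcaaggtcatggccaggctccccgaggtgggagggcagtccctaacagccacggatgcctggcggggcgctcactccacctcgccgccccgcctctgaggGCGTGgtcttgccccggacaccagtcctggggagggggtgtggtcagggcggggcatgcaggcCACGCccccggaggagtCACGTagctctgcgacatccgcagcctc
PGK1: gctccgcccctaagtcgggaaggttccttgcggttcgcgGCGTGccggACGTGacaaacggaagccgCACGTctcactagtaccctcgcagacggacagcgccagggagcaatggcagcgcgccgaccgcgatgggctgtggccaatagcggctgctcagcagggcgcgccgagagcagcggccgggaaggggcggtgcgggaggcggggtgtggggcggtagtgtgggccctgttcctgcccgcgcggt
ENO1: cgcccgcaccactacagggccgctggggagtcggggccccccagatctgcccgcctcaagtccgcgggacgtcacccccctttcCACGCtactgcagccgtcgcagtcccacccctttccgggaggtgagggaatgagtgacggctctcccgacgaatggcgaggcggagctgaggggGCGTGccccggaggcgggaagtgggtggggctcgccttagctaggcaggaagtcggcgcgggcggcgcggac
LDHA: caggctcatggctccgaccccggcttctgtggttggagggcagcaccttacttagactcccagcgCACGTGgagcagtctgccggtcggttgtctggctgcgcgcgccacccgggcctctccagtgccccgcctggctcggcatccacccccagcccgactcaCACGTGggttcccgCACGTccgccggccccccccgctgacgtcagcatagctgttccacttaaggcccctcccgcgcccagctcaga
PDHB: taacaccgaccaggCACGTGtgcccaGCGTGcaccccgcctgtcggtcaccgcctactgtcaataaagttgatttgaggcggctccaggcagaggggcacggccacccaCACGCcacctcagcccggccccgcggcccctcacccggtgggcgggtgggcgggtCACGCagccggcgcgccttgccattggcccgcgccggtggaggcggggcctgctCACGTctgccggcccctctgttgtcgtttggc
ALDOC, at chr17:28576896-28577145 on the minus strand, held 5 matches, PGK1, at chrX:78103998-78104247 on the plus strand, held 3, and ENO1, at chr1:8878687-8878936 on the minus strand, held 2. LDHA, at chr11:18394313-18394562 on the plus strand, held 5 in the first of its 2 windows, and PDHB, at chr3:58433833-58434082 on the minus strand, held 6. A match is a stretch of letters and not a measured binding site.

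At glucose uptake and the first phosphorylation the groups of every gene overlapped in its brightest probe set. Some dimmer probe sets had manganese higher without overlap, by 0.16 for SLC2A1, 0.37 and 0.35 for HK1 and 0.19 for HK2. The remaining ones overlapped, at 0.19 and 0.11 for SLC2A1 and 0.21 for HK1. SLC2A1, the ubiquitous glucose transporter GLUT1, read 10.63, 10.89 and 10.77 on controls 1, 2 and 3 and 10.87, 11.00 and 10.96 on manganese 1, 2 and 3. The groups overlapped, since manganese 1 lay just below control 2, and the difference was 0.18 (95% interval -0.07 to 0.44) and only 0.06 against control 2. HK1, the housekeeping hexokinase of brain, read 11.17, 10.53 and 11.03 in controls and 11.31, 11.28 and 11.17 in manganese. Only control 2 was clearly low for HK1, so its difference of 0.34 became 0.72 against control 2 alone and was 0.15 without control 2. HK2, the inducible hexokinase, read 8.50, 8.26 and 7.77 in controls and 8.45, 8.41 and 8.51 in manganese. Here control 3 was the low array, the groups overlapped, and the difference was 0.28 (95% interval -0.14 to 0.70), 0.19 against control 2 and 0.07 without control 3. The shift of HK1 against HK2 was 0.06, with overlapping groups, and 0.53 against control 2.

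GPI, which converts glucose 6-phosphate to fructose 6-phosphate, read 10.63, 10.89 and 10.94 in controls and 11.34, 11.32 and 11.20 in manganese. All manganese arrays were above all controls, by 0.46 ± 0.12 (SE) on average (limma adjusted p 0.226), and by 0.39 against control 2.

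Phosphofructokinase commits the sugar to glycolysis, and 3 genes encode its subunits. PFKL, the liver-type subunit, read 7.73, 8.24 and 7.97 in controls and 8.70, 8.58 and 8.43 in manganese. PFKP, the platelet-type subunit, read 10.47, 10.70 and 10.55 in controls and 11.11, 10.99 and 10.99 in manganese. For both, all manganese arrays were above all controls, with differences of 0.59 ± 0.15 (SE) and 0.45 ± 0.11 and limma adjusted p of 0.222 and 0.198. Against control 2 they were 0.33 and 0.33. The other passing probe sets of PFKL gave 0.50 without overlap and 0.21 with overlap. PFKM, the muscle-type subunit, read 10.89, 10.68 and 10.72 in controls and 10.93, 10.76 and 10.55 in manganese, with overlapping groups and a difference of -0.02 (95% interval -0.32 to 0.28), or 0.06 against control 2. Within each array PFKL shifted against PFKM by 0.61 and PFKP against PFKM by 0.47, and for both shifts the groups did not overlap (exact permutation test over the 6 arrays, two-sided p = 0.10, the smallest that 3 against 3 arrays can give). Against control 2 alone both shifts were 0.27. PFKL and PFKP shifted against each other by 0.14 with overlapping groups.

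The enzymes that set fructose 2,6-bisphosphate, the strongest activator of phosphofructokinase, had differences on both sides of 0. PFKFB4, a kinase and phosphatase of this signal, read 9.10, 9.54 and 9.15 in controls and 9.91, 9.93 and 9.70 in manganese. The groups did not overlap, and the difference was 0.58 ± 0.15 with a limma adjusted p of 0.216, or 0.30 against control 2, although its other passing probe sets, which are dimmer, gave 0.15 and 0.17. PFKFB3, the isoform with the highest kinase activity, read 10.58, 10.53 and 10.26 in controls and 10.60, 10.75 and 10.74 in manganese. The gap between the groups was narrow for PFKFB3, with manganese 1 only just above control 1. Its difference was 0.24, or 0.17 against control 2, and values of -0.21 to 0.24 came from its 4 probe sets. TIGAR, a phosphatase that lowers the signal and was named for its induction by p53, lay in the opposite direction, at 4.96, 4.81 and 4.76 in controls and 4.35, 4.22 and 4.42 in manganese. All manganese arrays were below all controls for TIGAR, by -0.52 ± 0.11 (SE) on average with a limma adjusted p of 0.177 and by -0.48 against control 2. Its signal was faint: manganese 1 and 2 lay below the 40th percentile of their arrays (4.38 and 4.39), so that TIGAR passed the filter through its controls and its difference is measured against values near background.

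The aldolases split the 6-carbon sugar, and both isoforms read higher on every manganese array. ALDOA, the form found in most tissues, read 12.73, 13.10 and 12.90 in controls and 13.42, 13.36 and 13.35 in manganese. ALDOC, the form enriched in brain, read 11.29, 11.72 and 11.41 in controls and 12.06, 12.10 and 11.95 in manganese. For both, the groups did not overlap and control 2 was the highest control, so the differences of 0.46 ± 0.12 (SE, limma adjusted p 0.236) and 0.56 ± 0.14 (adjusted p 0.198) became 0.27 and 0.32 against control 2. The 5 probe sets of ALDOC ranged from 0.38 to 0.72, and the second of ALDOA gave 0.66. ALDOA shifted against ALDOC by -0.10 with overlapping groups.

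From triose phosphate to phosphoglycerate, the brightest probe sets of 4 genes read higher on every manganese array, by 0.12 to 0.31. TPI1, which interconverts the trioses, read 13.00, 13.35 and 13.14 in controls and 13.44, 13.41 and 13.40 in manganese. GAPDH, the dehydrogenase of this step and a common reference gene, read 13.65, 13.76 and 13.82 in controls and 13.92, 13.88 and 13.90 in manganese. Both had non-overlapping groups with differences of 0.25 and 0.15, but their 95% intervals, -0.02 to 0.53 and -0.08 to 0.38, included 0, and TPI1 was at 0.07 and GAPDH at 0.13 against control 2. The other probe sets of TPI1 gave 0.30 and 0.46. The 3 GAPDH control probe sets of the array, which the rule leaves out, gave 0.16 at the 3' end, 0.20 in the middle and 0.16 at the 5' end, all without overlap. PGK1, which makes the first ATP of the pathway, read 12.71, 12.64 and 12.68 in controls and 13.00, 13.02 and 12.94 in manganese. The controls of PGK1 lay within a narrow range, and the difference of 0.31 ± 0.10 (SE, limma adjusted p 0.296) was 0.34 against control 2. All 9 of its probe sets had manganese above control without overlap, from 0.31 to 0.53. PGAM1, the phosphoglycerate mutase of brain and most tissues, read 12.92, 12.85 and 12.85 in controls and 13.03, 12.96 and 13.00 in manganese, a difference of 0.12 (95% interval -0.10 to 0.35) with no overlap, and of 0.15 against control 2.

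Enolase and pyruvate kinase close the pathway. ENO1, the ubiquitous enolase, read 12.64, 12.76 and 12.83 in controls and 13.31, 13.27 and 13.08 in manganese. ENO2, the neuron-specific enolase used as a marker of neuroendocrine tumours, read 8.60, 8.65 and 8.88 in controls and 9.20, 9.13 and 9.04 in manganese. Both were without overlap, at 0.48 ± 0.11 (SE, limma adjusted p 0.198) and 0.41 ± 0.12 (adjusted p 0.264), and they kept their size against control 2, at 0.46 and 0.47. The shift of ENO1 against ENO2, the ubiquitous against the neuronal form, was 0.06 with overlapping groups (exact permutation test, two-sided p = 0.30). PKM, the pyruvate kinase gene, read 10.29, 10.69 and 10.36 in controls and 10.85, 10.91 and 10.82 in manganese. Its difference of 0.41 ± 0.13 (limma adjusted p 0.297) was 0.17 against control 2, the highest of its controls. The M1 and M2 spliced forms of PKM were not separated here.

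Counted over the chain from the hexokinases to PKM, 12 of the 15 genes had manganese above control without overlap, as did 10.5% of all genes tested, and 14 had positive differences, with a median of 0.41. PFKM was the negative one, and HK1 and HK2 overlapped in their brightest probe sets. Against control 2 all 15 differences were positive, with a median of 0.32, but this agreement in sign follows for the 12 genes from the lack of overlap. For 3 of the 18 non-overlapping genes of the whole list, TPI1, PKM and GYS1, the difference against control 2 was under 0.5 of the one against all controls.

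**Figure D2:**
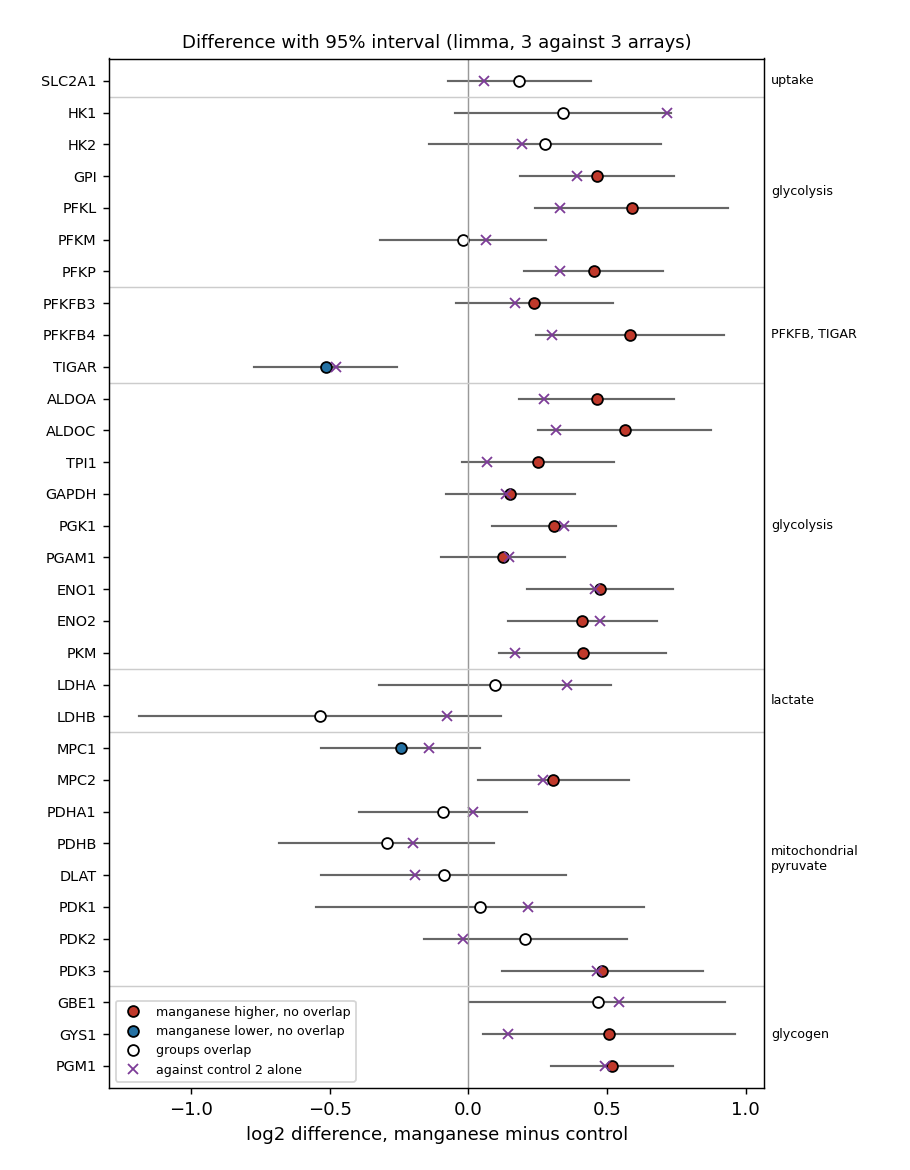
Log2 difference between manganese and control for the 32 tested genes in pathway order, with the 95% interval from limma (3 against 3 arrays). Filled circles mark genes whose groups do not overlap (red higher, blue lower in manganese), open circles those that overlap, and crosses the difference against control 2 alone. PFKL, PFKFB4 and ALDOC have the largest positive values, at 0.59, 0.58 and 0.56, and the interval of LDHB is the widest.

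Pyruvate is turned into lactate by tetramers of the LDHA and LDHB subunits, and neither subunit gene separated the groups. LDHA, the muscle-type subunit that favours lactate formation, read 13.29, 12.61 and 12.71 in controls and 13.05, 12.88 and 12.97 in manganese. Control 1 was the highest array and the other controls the lowest, so that the difference was 0.09 with all controls, 0.36 against control 2 and 0.31 without control 1. LDHB, the heart-type subunit, read 11.59, 10.40 and 10.59 in controls and 10.22, 10.26 and 10.50 in manganese. Control 1 was again far above the rest, and the difference of -0.54 ± 0.28 (SE, limma adjusted p 0.457) was -0.17 without control 1 and -0.08 against control 2. The excess of control 1 was common to both genes, and within arrays LDHA minus LDHB was 1.71, 2.21 and 2.12 in controls and 2.83, 2.62 and 2.47 in manganese. These differences between probe sets carry no scale of their own, but their shift of 0.63 towards LDHA was without overlap (exact permutation test, two-sided p = 0.10, the smallest possible here) and was 0.44 against control 2.

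**Figure D3:**
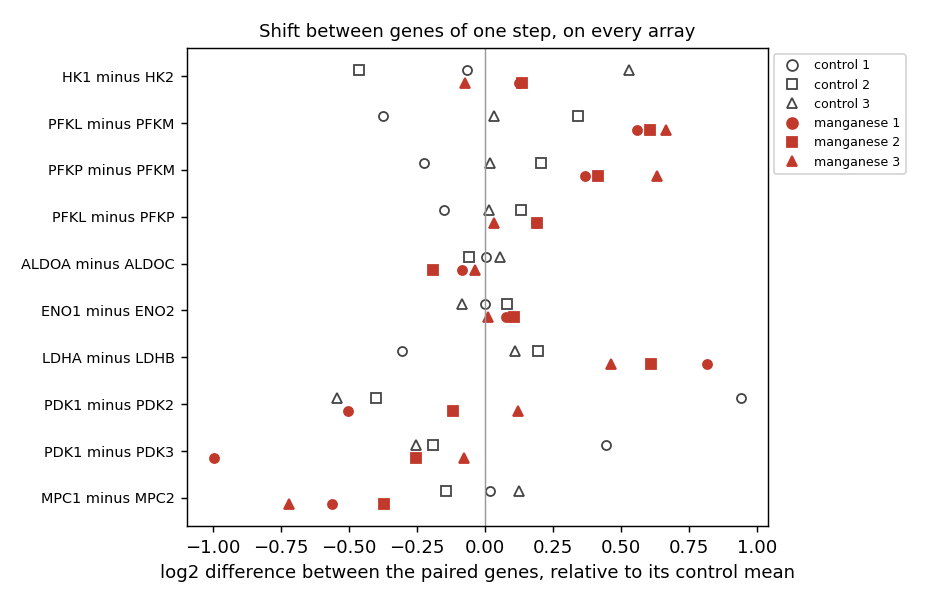
Difference in log2 RMA value between paired genes of one step on each array, relative to the mean of the 3 control arrays, for the 10 pairs that could be read. PFKL and PFKP against PFKM, LDHA against LDHB and MPC1 against MPC2 have manganese arrays (filled red) outside the range of the controls (open grey), and the other 6 pairs overlap.

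Of the 12 isoform pairs listed, 10 could be computed and 4 had non-overlapping groups, as did 21.8% of all pairs of tested genes. The 10 pairs share genes and were chosen with earlier results known. No pair can pass an exact test at 0.05 in this design, before or after correction for the 10 pairs. The fourth of these 4 pairs was the mitochondrial pyruvate carrier, which works as a complex of MPC1 and MPC2. MPC1 read 7.92, 7.69 and 7.76 in controls and 7.65, 7.62 and 7.36 in manganese. MPC2 read 8.97, 8.90 and 8.71 in controls and 9.28, 9.06 and 9.15 in manganese. The subunits lay on opposite sides, MPC1 at -0.24 (95% interval -0.53 to 0.04) and MPC2 at 0.31 ± 0.12 (SE, limma adjusted p 0.357), both without overlap. Against control 2 they were at -0.14 and 0.27, and MPC1 was at -0.15 without manganese 3. The shift of MPC1 against MPC2 was -0.55 and, against control 2, -0.41 (exact permutation test, two-sided p = 0.10). MPC1 has a single probe set, whereas all 4 of MPC2 were higher without overlap, from 0.26 to 0.37.

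The pyruvate dehydrogenase complex turns pyruvate into acetyl-CoA, and none of its measured subunits separated the groups. PDHA1, the catalytic subunit that the kinases phosphorylate, read 9.18, 8.82 and 8.80 in controls and 8.84, 8.91 and 8.77 in manganese. PDHB, its partner subunit, read 8.79, 8.33 and 8.16 in controls and 8.14, 8.23 and 8.03 in manganese. DLAT, the acetyltransferase core, read 7.34, 7.13 and 6.61 in controls and 7.09, 6.77 and 6.96 in manganese. All 3 overlapped and control 1 was their highest array, with differences of -0.09 (95% interval -0.40 to 0.21), -0.30 (-0.68 to 0.09) and -0.09 (-0.53 to 0.35). Against control 2 they were 0.02, -0.20 and -0.19. Without control 1 PDHB was at -0.11, and PDHA1 and DLAT turned to 0.03 and 0.07. The intervals of PDHA1 and DLAT reach 0.21 and 0.35, so a difference of the size seen for PGK1 is outside the interval for PDHA1 but not for DLAT.

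The pyruvate dehydrogenase kinases, which shut the complex, had positive differences of unequal size against all controls. PDK1, a well-known hypoxia-inducible member, read 8.71, 7.94 and 7.69 in controls and 7.90, 8.20 and 8.37 in manganese. Control 1 was the highest array, and the difference was 0.04 (95% interval -0.55 to 0.63) and 0.21 against control 2, while the dimmer of its probe sets gave 0.35 without overlap. PDK2, the most widely expressed kinase, read 7.36, 7.93 and 7.82 in controls and 7.99, 7.90 and 7.84 in manganese, with overlap, and its difference of 0.21 was -0.02 against control 2. PDK3, a less widely expressed member, read 6.02, 5.89 and 5.69 in controls and 6.65, 6.20 and 6.20 in manganese. Only PDK3 was without overlap, at 0.48 ± 0.16 (SE, limma adjusted p 0.304) and 0.46 against control 2, and manganese 1 was its highest array. Taking carrier, complex and kinases together, 4 of the 8 tested genes had positive and 4 negative differences, with a median of -0.02.

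The 3 glycogen genes of the list had positive differences, and the groups of GBE1 overlapped. PGM1, which links glucose 6-phosphate to glycogen, read 9.71, 9.73 and 9.68 in controls and 10.24, 10.22 and 10.21 in manganese. Its arrays lay closer together within each group than those of other genes of the list, and its difference of 0.52 ± 0.10 (SE), a 1.43-fold ratio, had the smallest limma adjusted p of the list, 0.133. Its second probe set gave 0.47, and the difference against control 2 was 0.49. GYS1, the glycogen synthase of most tissues, read 7.17, 7.98 and 7.70 in controls and 8.25, 8.05 and 8.08 in manganese. The groups of GYS1 did not overlap, but control 1 was low, and its difference of 0.51 (limma adjusted p 0.358) was 0.14 against control 2. GBE1, the branching enzyme, read 4.55, 4.05 and 3.77 in controls and 4.67, 4.40 and 4.71 in manganese, a difference of 0.47 with overlapping groups, or 0.54 against control 2. GBE1 was close to background, with control 2 and 3 below the 40th percentile of their arrays, which limits the size of its difference. It passed the filter through its manganese arrays and control 1.

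Several probe sets read the same gene in part of the list. Of the 32 genes 20 had several passing probe sets, and in 3 of these, PFKFB3, PDHA1 and DLAT, the probe sets differed in sign. In 14 genes all passing probe sets had manganese above control without overlap, 8 of them with several probe sets. For the rest the brightest probe set was the only passing one, so they add nothing to the earlier count without overlap. The same share over all genes tested was not counted, so these numbers have no background. Of the 6 genes with several probe sets whose brightest averaged above 12, ALDOA, TPI1, PGK1, PGAM1, ENO1 and LDHA, the brightest gave the smallest difference in all 6. The probe set standing for the gene is marked by its suffix as shared in 14 of the 32 genes, so that near-identical copies such as pseudogenes may add to its signal.

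**Figure D4:**
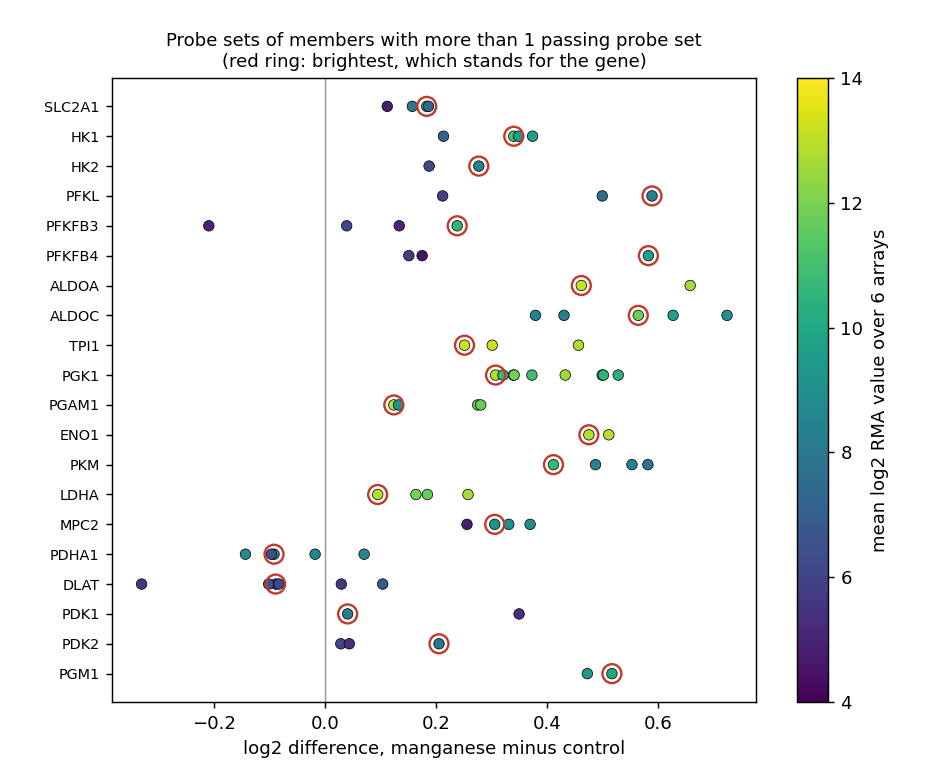
Log2 difference between manganese and control for each passing probe set of the 20 genes with more than 1, coloured by mean log2 RMA value, with a red ring around the brightest. The 9 probe sets of PGK1 lie between 0.31 and 0.53, and those of PDHA1 and DLAT lie on both sides of 0.

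The rest of the pathway was examined through 80 further genes, of which 57 were tested and none passed the threshold. Of the 57, 5 had manganese higher and 4 lower without overlap, where 10.5% and 9.26% of all genes did. At an unadjusted p under 0.05, 4 were higher and 3 lower, where 5.97% and 6.85% of all genes were, so that these counts were near the background. Their median difference was 0.01, and 0.02 against control 2. In each group of these genes the 3 with the smallest unadjusted p are named. The smallest of all was that of PPP1R3C, a scaffold that brings protein phosphatase 1 to glycogen and activates its synthesis. It read 7.11, 6.56 and 6.01 in controls and 7.85, 7.67 and 7.93 in manganese. The groups did not overlap, and the difference of 1.25 ± 0.25 (SE), a 2.38-fold ratio with a limma adjusted p of 0.142, was larger than that of any gene on the 37-gene list and was 1.25 against control 2. Among the other 11 glycogen genes tested, UGP2, which makes the glucose donor of glycogen, differed by 0.31 (0.41 against control 2), and GYG1, the glycogen primer, by -0.34 (-0.17).

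Alternative glucose transporters and hexokinases were mixed, with 4 of 10 positive and a median of -0.01, or 6 of 10 and 0.04 against control 2. SLC2A6, a lysosomal hexose transporter, was at -0.37 and -0.63 against control 2, without overlap, but its 3 passing probe sets ranged from -0.37 to 0.02. SLC2A4, the insulin-responsive transporter GLUT4, was at 0.13 (0.14 against control 2), and SLC2A14 at 0.17 (0.12). Tissue-restricted isoforms and bypass enzymes had 9 of 14 positive and a median of 0.05, but 6 of 14 and -0.04 against control 2. Of the phosphoenolpyruvate carboxykinases, PCK2 was at 0.40 and only 0.10 against control 2, and PCK1 at 0.23 and 0.22. The D-lactate dehydrogenase LDHD was at 0.20 and 0.33 against control 2.

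In pyruvate handling, 4 of 7 further genes were positive, and 3 of 7 against control 2. PDP1, the phosphatase that reactivates pyruvate dehydrogenase and so opposes the kinases, differed by 0.47 (limma unadjusted p 0.0304, adjusted p 0.351) and by 0.44 against control 2. Its regulatory subunit PDPR differed by -0.47, but by -0.03 against control 2, and the alanine aminotransferase GPT turned from 0.17 to -0.07. Passing probe sets ranged from -0.47 to 0.10 for PDPR and from -0.04 to 0.19 for GPT. The pentose phosphate pathway, which branches off at glucose 6-phosphate, had 4 of 6 positive and a median of 0.10, or 0.03 against control 2. PGLS was at 0.43 without overlap and at 0.27 against control 2, whereas TKT turned from 0.25 to -0.11 and RPE from -0.23 to 0.02. The shuttles that carry cytosolic NADH into mitochondria had 4 of 8 positive and a median of -0.10, or -0.03 against control 2. GOT1 was at -0.26 without overlap and at -0.23 against control 2, GPD1L went from -0.40 to -0.11, and GOT2 turned from -0.21 to 0.04.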

How the data were processed

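Biotin-labelled cRNA from total RNA was hybridised to 6 one-colour Affymetrix arrays, 3 control and 3 manganese. The deposited values are log2 signals of 49395 probe sets that the authors computed with RMA (Affymetrix Expression Console), according to the submitters' processing notes. RMA gives all arrays one distribution, which hides any shift of total RNA. No source used here gives software versions or scan dates. Replicates are called biological in the labels, without further detail, so p-values measure the spread between these arrays. Arrays have no counting depth, and their number limits the precision.

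Names came from the platform annotation, with 44988 probe sets of 1 gene symbol, 1832 of several and 2473 unnamed here. The 34 readable genes of the list matched RefSeq by Entrez number. Probe sets above the 40th percentile of their array on at least 3 arrays were kept, and the brightest stood for each gene. With R 4.3.3, limma 3.58.1 (lmFit, eBayes, group as the only term) was run on 13407 genes, two-sided, with Benjamini-Hochberg adjustment over all of them and a threshold of 0.05. Standard errors and 95% intervals come from that fit, which was tested on simulated arrays with independent normal noise. At the threshold it recovered 44.4% of differences of 0.58, the smallest size simulated, and 96.4% of differences of 1, and 5.39% of its calls were false. The simulated arrays gave 179.8 calls on average, against 19 in the data. The adjusted threshold was therefore looser there, and these recoveries may be too high for the data. Differences of the size seen in the list would thus often be missed.

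All genes of the list are described. Of 80 further pathway genes, those past the threshold and up to 3 per group with the smallest unadjusted p were to be named. Genes, lists, isoform pairs and alternatives were chosen with earlier results of these data known. Alternatives changed the filter, variance model, scaling and probe set rule, added a replicate block and left out arrays.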

Additional observations from a re-analysis of the deposited data

How the results depend on the processing

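None of the listed genes passed the threshold under any of the 14 alternative settings. The count of 19 genes called over the whole array became 50 with arrays centred on their median, 198 with arrays centred on 9 housekeeping genes, 6 with the replicate block and 5 against control 2 alone, and lay between 0 and 43 when each array was left out in turn. It was 0 without control 3 or without any 1 manganese array, with 832 to 1223 genes at an unadjusted p under 0.05, and 43 without control 2. The median difference of the listed genes was 0.34 with housekeeping centring, 0.20 against control 2 alone and 0.25 to 0.33 with single arrays left out. With single arrays left out 18 to 22 of the listed genes were without overlap on the high side, where 13.1% to 20.6% of all genes were, and with housekeeping centring 16 were, where 7.6% of all genes were. In this balanced design a replicate block cannot move any difference, so the median of 0.29 under it says nothing of stability. Same-numbered arrays did not deviate together (correlations of -0.30, 0.15 and -0.27), so the numbers were not taken to pair the cultures. Isoform pairs without overlap numbered 4 to 7 when each array was left out, and 7 without control 2 or manganese 3. The share over all pairs of tested genes was not counted with an array left out, so these numbers have no background. Fewer arrays make overlap less likely by construction. PFKM turned to 0.0032 with median centring, 0.029 with housekeeping centring and 0.063 against control 2, where PDHA1 turned to 0.017 and PDK2 to -0.020. With single arrays left out, differences lay between -0.11 and 0.077 for PFKM, -0.16 and 0.031 for PDHA1, -0.30 and 0.068 for DLAT, -0.036 and 0.31 for LDHA and -0.17 and 0.34 for PDK1, so their directions are not settled. The cause of these turns was not tested. TIGAR and GBE1 lay near background, which limits their values.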
